A study of Mus musculus with 30 samples.

Results

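In 3T3-L1 pre-adipocytes induced for 4 h, 360 of 34724 listed genomic intervals were tightly clustered hotspots, grouped in 109 clusters. Compared with hotspots that stood alone, they had higher shares listed for the zinc-finger factors KLF4 and KLF5, the retinoid X receptor RXR and the bZIP factor ATF2. The shares of the AP-1 subunits cJun and JunB were lower, by differences whose intervals included 0. A hotspot is an interval listed for 5 or more of 9 transcription factors. Hotspots were reduced to 200 bp windows at their midpoints, hotspots whose windows lay within 10000 bp of each other were joined, and groups of 3 or more were kept. Clusters inside 3 dense blocks of chromosome 10 were left out, which removed 19 of 128 clusters; the hotspots of these blocks lay from 106940603 to 107825607, from 116366043 to 116780392 and from 117229284 to 117983885 in mm9. Outside these blocks 5487 of 33781 intervals were hotspots, or 16.2%, and 360 of those 5487 hotspots lay in a cluster of 3 or more, or 6.56%. The other hotspots formed 559 pairs or were isolated, with no hotspot within 10000 bp; the 4009 isolated hotspots served as the comparison.

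3T3-L1 is a mouse fibroblast line that becomes fat cells under hormonal treatment. All cells of the 9 lists had been grown past confluence and given 1 μM dexamethasone, a synthetic glucocorticoid, 0.5 mM isobutylmethylxanthine, which raises cyclic AMP, 1 μg/ml insulin and 10% fetal calf serum, and were harvested 4 h later; no list of uninduced cells was used. Chromatin immunoprecipitation with sequencing (ChIP-seq) had been done for the receptors VDR and RXR, the Krüppel-like factors KLF4 and KLF5 and the bZIP proteins cJun, JunB, FOSL2, ATF2 and ATF7. Each factor had 1 list, and the lists held 5876 (KLF4) to 17120 (KLF5) intervals. The lists give positions only, so the depth of the libraries is unknown, and a factor that is not listed may still bind below the authors' threshold.

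Hotspots are stretches of open chromatin where many transcription factors are found together, and groups of neighbouring enhancers with high occupancy have been called super-enhancers. cJun, JunB and FOSL2 are subunits of AP-1, a dimer that responds to growth and stress signals, and ATF2 and ATF7 are related bZIP proteins that bind cyclic AMP response elements. KLF4 and KLF5 are Krüppel-like factors that act in fat cell formation: KLF4 acts upstream of the adipogenic regulator C/EBPβ, and KLF5 is induced downstream of C/EBPβ and acts on PPARγ. VDR, the vitamin D receptor, binds DNA as a heterodimer with RXR, which also pairs with PPARγ in fat cells. Whether the clusters described here meet a definition of super-enhancers was not tested, since no co-activator signal was used.

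The clusters were small and short. Of the 109, 83 held exactly 3 hotspots, 20 held 4, 5 held 5 and 1 held 6. Their span from the first to the last window ranged from 1361 to 33897 bp with a median of 9256 bp. The 251 distances between neighbouring midpoints ranged from 302 to 10119 bp with a median of 3779 bp. Of these neighbours, 56 were under 1000 bp apart and 87 were 5000 bp or more apart. In 7 pairs, each in a different cluster, the midpoints were under 400 bp apart, so that the deposited 400 bp intervals overlapped and the same reads may have entered both.

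Clusters were found on 19 chromosomes and not on X. Chromosome 6 had the most, 16 clusters with 52 of its 531 hotspots, or 9.79% (95% exact interval 7.40 to 12.6). The highest shares were on chromosome 17, with 30 of 243 hotspots or 12.3% (8.49 to 17.2), and chromosome 19, with 38 of 324 or 11.7% (8.43 to 15.7). Chromosome 4 had 6 of 209, or 2.87% (1.06 to 6.14), and X had 0 of 50 (0 to 7.11). Intervals of shares are Clopper-Pearson and cover counting error only. For X, the simpler limit of 3 counts that a count of 0 allows gives 6%, below the upper end of 7.11% of the exact interval.

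The largest cluster lay on chromosome 19 from 5840456 to 5848544 (mm9) and held 6 hotspots in 8089 bp. ATF2, KLF4, VDR and RXR were listed at every one of them. Its first hotspot had 5 factors, FOSL2 joining these 4, and stood 4973 bp before the second; the others lay close together. KLF5 was listed at the other 5, ATF7 at 4, FOSL2 at 4 and JunB at 2. cJun was listed only at the last hotspot, where all 9 factors met. Between its ends lay 4 further sites of fewer than 5 factors.

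A cluster of 5 hotspots on chromosome 6, from 12398962 to 12409081, had an almost constant makeup. It opened with a hotspot of all 9 factors, and the other 4 lacked FOSL2, ATF2 and ATF7. cJun, KLF4, KLF5, VDR and RXR were at all 5 hotspots, and JunB was missing from 1. The longest cluster, with 5 hotspots over 33897 bp on chromosome 17 from 71069330 to 71103226, was of another kind: FOSL2 and ATF2 were the only factors at every hotspot. There KLF4 and KLF5 were absent from the first hotspot, and VDR was listed at 2 of the 5.

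The second cluster of 5 on chromosome 6, from 31011992 to 31032234, had JunB as its only constant member. KLF5 and RXR were at its first 3 hotspots together, and the fourth held the 5 bZIP factors and nothing else. On chromosome 2, from 164198465 to 164212154, KLF5 and RXR were at all 5 hotspots. ATF2 was missing there from the middle hotspot, and KLF4 was listed at the second and the third. On chromosome 1, from 175968660 to 175983440, KLF5, VDR and RXR were constant, ATF7 was absent throughout, and each hotspot had 5 or 6 factors. These clusters shared size but not makeup.

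Of the 20 clusters of 4 hotspots, the 2 with the most listings are described here. One on chromosome 13, from 53072143 to 53081398, had a mean of 8 factors, with cJun, JunB, ATF2, KLF5, VDR and RXR at all 4 hotspots. The other, on chromosome 17 from 27289941 to 27298239, had a mean of 7.25 factors, with ATF2, ATF7, KLF4, KLF5 and RXR at all 4. Its first 3 hotspots lay within 913 bp, the first pair with overlapping deposited intervals 379 bp apart, yet they had 7, 9 and 5 factors.

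**Figure D1:**
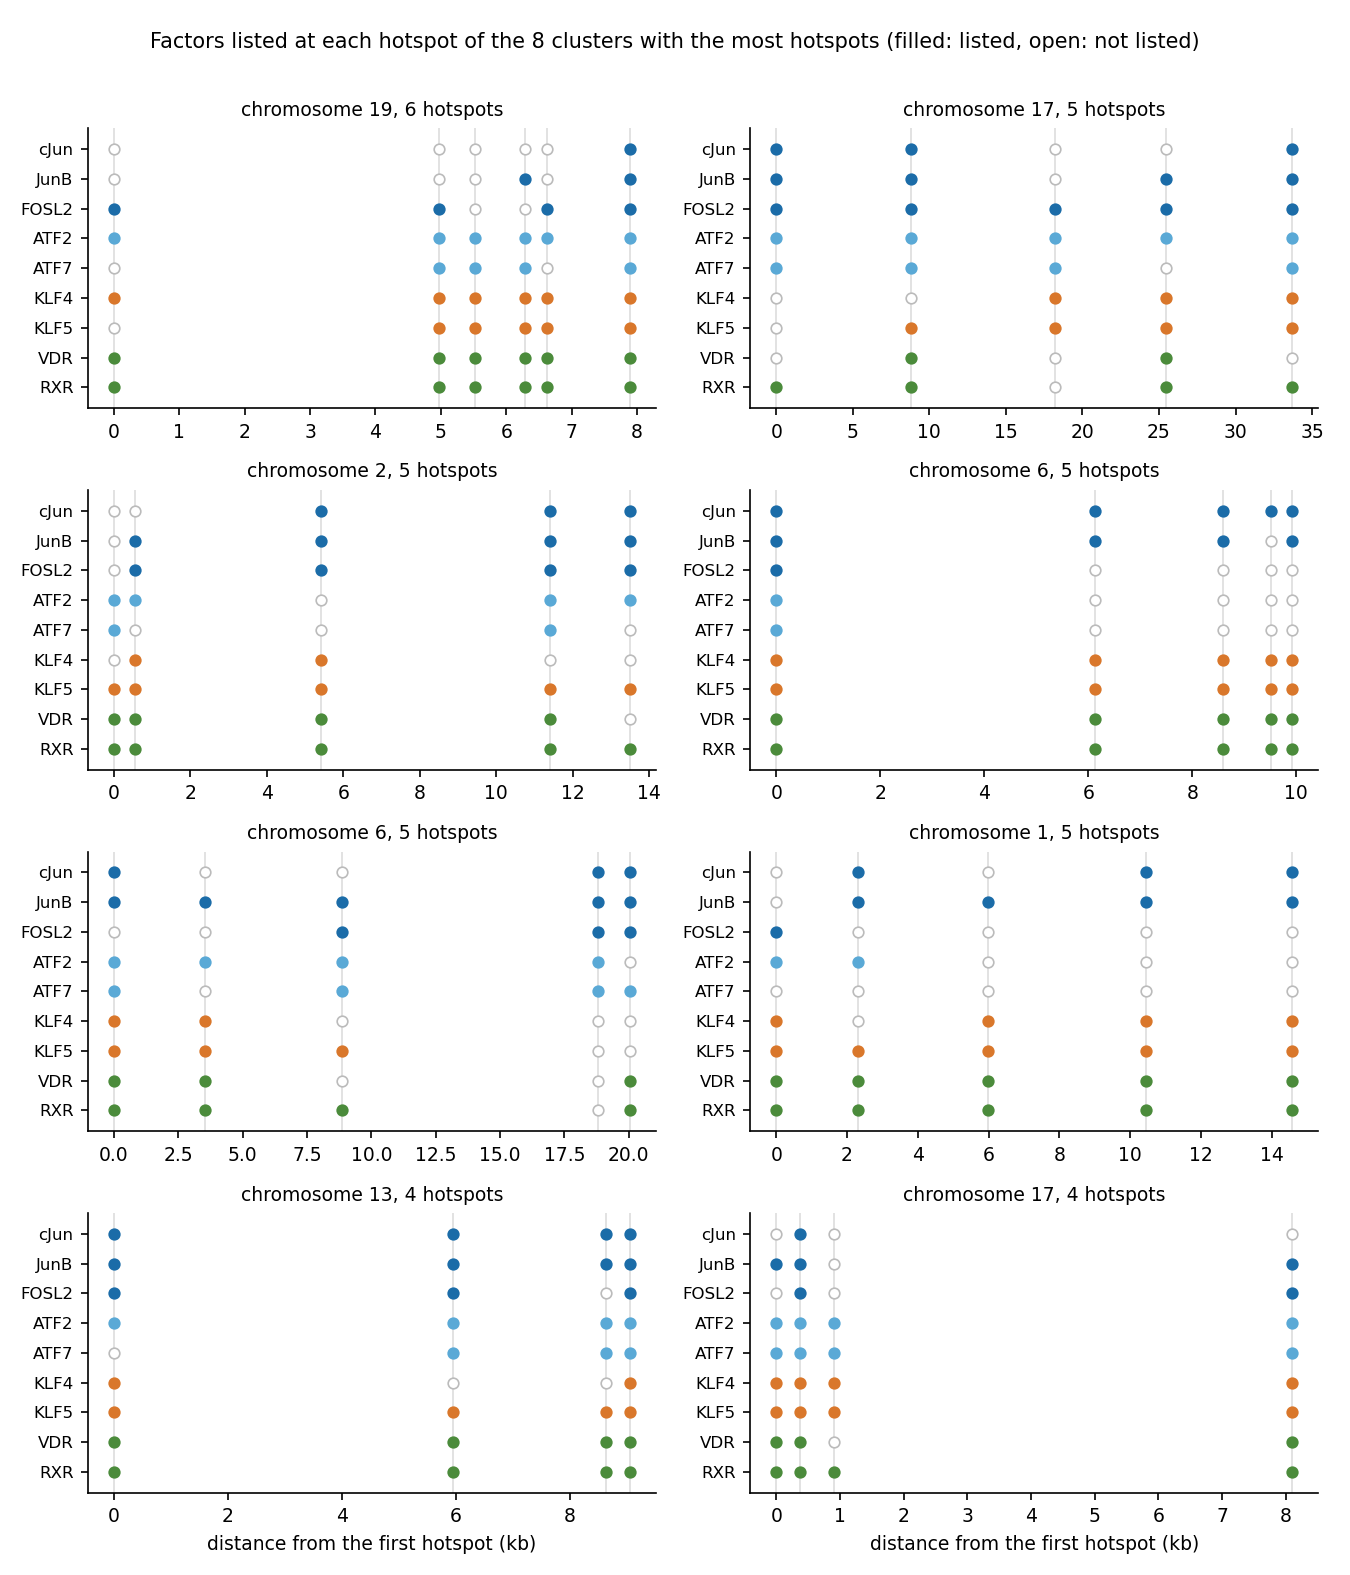
Listing of the 9 factors at each hotspot of the 8 clusters with the most hotspots. Each panel is 1 cluster, the horizontal axis is the distance from its first hotspot in kb, filled points are listed factors, open points are factors not listed, and colours mark AP-1, ATF, KLF and receptor proteins; the chromosome 19 cluster of 6 has ATF2, KLF4, VDR and RXR at every hotspot and cJun only at the last.

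The extremes of factor number were clusters of 3 or 4 hotspots. On chromosome 1, from 138579775 to 138582163, the 3 hotspots had 9, 9 and 8 factors, and KLF5, otherwise the most constant factor, was the one missing at the third. Their mean of 8.67 factors was the highest. The chromosome 13 cluster of 4 and 4 clusters of 3 shared the next mean, 8 factors. One of these lay on chromosome 1 from 94696347 to 94703602, where each of 3 hotspots had 8 factors and lacked either ATF7 or RXR. The lowest mean, 5 factors, was on chromosome 8 from 11382495 to 11385792: ATF2, KLF4, KLF5 and RXR were at all 3 hotspots, with ATF7 or VDR as the fifth. It was the only cluster of the 109 with none of the 3 AP-1 subunits at any hotspot. Clusters on chromosome 3 (151492117 to 151503937) and chromosome 4 (144862642 to 144871066) were 2 of 8 clusters that shared the next mean, 5.33, and were taken by number of hotspots and position. The first kept KLF5, VDR and RXR, and the second kept only ATF2 and ATF7.

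The shortest clusters put several different factor sets side by side. Within 1361 bp of chromosome 5, from 74272288 to 74273648, 3 hotspots had 9, 8 and 7 factors, a mean of 8. Within 1499 bp of chromosome 19, from 17023388 to 17024886, a hotspot with FOSL2, ATF2, KLF4, KLF5 and RXR stood 604 bp from one with cJun, JunB, KLF5, VDR and RXR. Within 1653 bp of chromosome 11, from 61958767 to 61960419, a hotspot with ATF2, ATF7, KLF5, VDR and RXR lay between 2 that held cJun and JunB. KLF5 and RXR were common to all 9 of these hotspots.

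Clustered hotspots carried slightly more factors than isolated ones. The mean was 6.46 ± 1.32 factors (SD over 360 hotspots), against 6.39 ± 1.36 over 1118 hotspots in pairs and 6.21 ± 1.25 over 4009 isolated hotspots. The difference was 0.247 factors (95% normal interval 0.105 to 0.389, hotspots taken as independent). It was 0.0699 without the KLF5 list and 0.104 without the ATF2 list, with 5 of the other 8 required. Exactly 5 factors were listed at 29.2% of clustered and 37.6% of isolated hotspots. At the upper end, 7 or more factors were listed at 145 clustered hotspots, or 40.3% (35.2 to 45.5), against 33.3% (31.9 to 34.8) of isolated and 34.8% of all hotspots outside the blocks. All 9 factors met at 39 clustered hotspots, or 10.8% (7.82 to 14.5), against 7.43% (6.64 to 8.29) of isolated and 8.60% of all. Hotspots in pairs had a higher share still, 135 of 1118 or 12.1% (10.2 to 14.1). The number of factors chose the hotspots, so these values are a description. With 1 library per factor there is no replicate, and no test between clustered and isolated hotspots was made. Hotspots of 1 cluster are not independent, so intervals over hotspots are narrower than they should be.

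Hotspots with all 9 factors were spread over the clusters: 36 clusters had at least 1, and 3 had 2 or more. Clusters with only 5 or 6 factors at each hotspot numbered 24, and those with 7 or more at each numbered 7. The highest number was not typically in the middle. Of the 83 clusters of 3, the single highest hotspot was at an end in 42 and in the middle in 15, and 26 had a tie; a cluster of 3 has 2 ends and 1 middle. Over all clusters the outer hotspots had 6.51 ± 1.36 factors (SD, 218 hotspots) and the inner ones 6.37 ± 1.26 (142 hotspots).

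KLF4 had a higher share at clustered than at isolated hotspots. These shares describe hotspots that the same lists chose. KLF4 was listed at 253 of 360 clustered hotspots, or 70.3% (65.3 to 74.95), at 59.97% (58.4 to 61.5) of isolated hotspots and at 62.3% of all hotspots outside the blocks. The difference was 10.3 percentage points (95% Newcombe interval 5.17 to 15.1, counting error only). It was 4.61 points with the JunB list left out and 5 of the other 8 required. KLF5 was listed at 344, or 95.6% (92.9 to 97.4), against 92.1% (91.2 to 92.9) of isolated and 93.4% of all, a difference of 3.44 points (0.669 to 5.34). Its share in pairs was higher, 97.5%, than in clusters of 3, 96.0%, or of 4 or more, 94.6%. With 5 of the other 8 lists required, the KLF5 difference was 0.798 points without the RXR list and 1.46 without the VDR list. Both KLF factors together were at 68.9% of clustered and 58.3% of isolated hotspots. The share of KLF4 was already 68.3% at hotspots in pairs, 71.1% in clusters of 3 and 68.5% in larger clusters, so that the step lay between isolated hotspots and all the others.

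Of the receptors, RXR had the larger difference. RXR was listed at 332 clustered hotspots, or 92.2% (89.0 to 94.8), against 86.4% (85.3 to 87.4) of isolated and 87.6% of all, a difference of 5.84 points (2.45 to 8.43). With 5 of the other 8 lists required, it was 2.98 points without the KLF4 list and 3.18 without the KLF5 list. VDR was listed at 305, or 84.7% (80.6 to 88.3), against 83.1% (81.9 to 84.2) of isolated and 83.5% of all; the difference of 1.66 points had an interval of -2.58 to 5.21. The share of RXR was 90.3% in pairs, 91.6% in clusters of 3 and 93.7% in larger ones, with overlapping intervals. KLF4 and RXR were listed together at 66.7% of clustered and 54.5% of isolated hotspots, a difference of 12.2 points (6.91 to 17.1). All 4 of KLF4, KLF5, VDR and RXR were at 59.2% and 49.4%.

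Of the ATF factors, ATF2 had the larger difference, but the intervals of the 2 differences overlapped. ATF2 was listed at 236 clustered hotspots, or 65.6% (60.4 to 70.5), against 57.7% (56.2 to 59.3) of isolated and 58.9% of all, a difference of 7.84 points (2.56 to 12.8). With 1 list left out it ranged from 3.93 points (without ATF7, 4 of the other 8) to 12.5 (without VDR, 5 of the other 8). ATF7, its close relative, was listed at 173, or 48.1% (42.8 to 53.4), against 45.8% (44.3 to 47.4) of isolated and 46.0% of all, a difference of 2.21 points with an interval of -3.13 to 7.59. Both ATF factors together were at 44.4% of clustered and 38.3% of isolated hotspots, a difference of 6.11 points (0.836 to 11.5). ATF2 without ATF7 was at 21.1% and 19.4%, a difference of 1.73 points (-2.37 to 6.39). ATF2 and KLF4 met at 44.2% of clustered and 31.9% of isolated hotspots, a difference of 12.3 points (7.07 to 17.7).

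The AP-1 subunits cJun and JunB went the other way. cJun was listed at 215 clustered hotspots, or 59.7% (54.4 to 64.8), against 64.5% (63.0 to 66.0) of isolated and 64.0% of all, a difference of -4.78 points (-10.1 to 0.377). JunB was listed at 283, or 78.6% (74.0 to 82.7), against 82.2% (81.0 to 83.4) of isolated and 81.7% of all, a difference of -3.63 points (-8.30 to 0.477). Both intervals included 0. With 1 list left out, cJun ranged from -12.0 points (without VDR, 5 of the other 8) to -1.10 (without ATF2, 4 of the other 8). JunB ranged from -10.5 (without VDR, 5 of the other 8) to -1.10 (without FOSL2, 4 of the other 8). FOSL2, the third subunit, was listed at 183, or 50.8% (45.5 to 56.1), against 49.0% (47.5 to 50.6) and 48.8% of all. For cJun the lower share lay in the 26 clusters of 4 or more hotspots, with 51.4% (41.7 to 61.0), while clusters of 3 had 63.5% (57.1 to 69.4). Hotspots without cJun and JunB made up 17.2% of clustered and 13.4% of isolated ones.

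**Figure D2:**
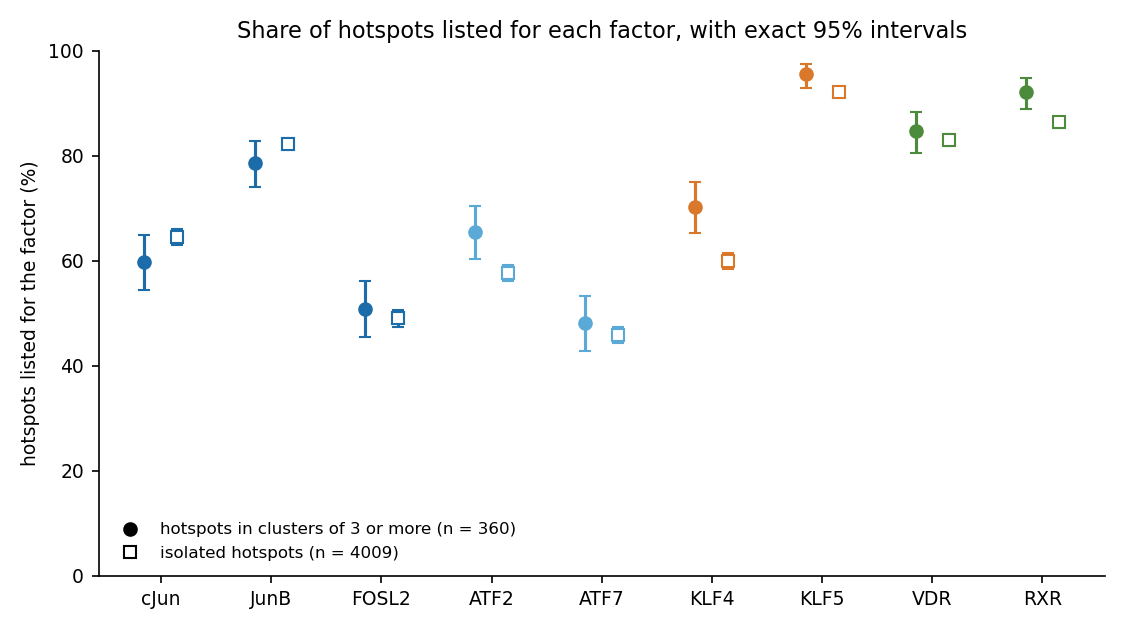
Share of hotspots listed for each factor, in percent, at hotspots in clusters of 3 or more (filled circles) and at isolated hotspots (open squares), with exact 95% intervals for counting error. KLF4 was listed at 70.3% and 59.97%, and cJun at 59.7% and 64.5%.

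Because clustered hotspots hold more factors, each share was also compared at equal numbers of factors, by weighting the isolated hotspots to the factor numbers of the clustered ones. KLF4 was then higher by 6.78 points, ATF2 by 4.44, RXR by 4.01 and KLF5 by 2.42. VDR differed by -0.139, ATF7 by -1.65, FOSL2 by -2.29, JunB by -6.02 and cJun by -7.55 points. FOSL2, ATF7 and VDR thus changed sign, and the lower shares of cJun and JunB became larger in size. Joint listings were also higher by less: KLF4 with RXR by 7.99 points, KLF4 with ATF2 by 7.66 and both KLF factors by 6.93. All 4 of KLF4, KLF5, VDR and RXR were higher by 5.41. Hotspots without cJun and JunB were higher by more, at 5.46 points. Whether joint listing went beyond the shares of the single factors was not tested. Among hotspots with exactly 6 factors, cJun was listed at 56.4% of 110 clustered and 69.2% of 1166 isolated hotspots, and KLF4 at 71.8% and 64.8%. Among those with 7, cJun was listed at 45.0% of 60 and 64.6% of 627, and KLF4 at 80.0% and 65.1%. Among those with 8, where 46 hotspots were clustered, KLF4 had 78.3% in both groups and cJun had 87.0% and 76.6%. RXR had 93.5% and 99.3%, and JunB was listed at every one of these hotspots in both groups. KLF5 had 97.8% and 99.3%. The directions for cJun, RXR and KLF5 therefore did not hold at 8 factors. Those for KLF4, with a difference of -0.0846 points, and JunB, with 0, did not hold there either. The direction for ATF2 did not hold at 5, with 42.9% and 44.4%.

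By chromosome, the share of KLF4, of KLF5 and of RXR was higher at clustered hotspots on 15 of 19 chromosomes, and that of ATF2 on 14. JunB was lower on 13 and cJun on 12. ATF7, VDR and FOSL2 were divided, with higher shares on 11, 10 and 9 chromosomes. On 9 chromosomes there were only 2 or 3 clusters, so these counts weigh thin and well-filled chromosomes alike.

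A factor's own listing helped to choose the hotspots, so each factor was also read at hotspots and clusters defined from the other 8 lists alone. With hotspots of 4 or more of the other 8 lists, KLF4 was listed at 355 of 639 clustered hotspots, or 55.6% (51.6 to 59.5), and at 44.4% (43.0 to 45.8) of 5053 isolated ones, a difference of 11.1 points (7.04 to 15.2). KLF5 differed by 8.50 points (5.18 to 11.1), with 91.2% of 409 against 82.7% of 4380. RXR differed by 8.04 points (4.06 to 11.6), with 81.4% of 468 against 73.4% of 4562. ATF2 differed by 4.80 points (0.769 to 8.84), with 48.3% of 663 against 43.5% of 4992. Under this definition cJun and JunB hardly differed, by -0.981 points (-4.84 to 2.91) and -0.192 points (-4.23 to 3.69).

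With hotspots of 5 or more of the other 8 lists, the differences were 9.47 points (2.90 to 15.7) for KLF4 and 7.96 (1.67 to 14.0) for ATF2. RXR differed by 5.63 points (-0.364 to 10.1) and KLF5 by 2.69 (-2.88 to 6.33), and both intervals included 0. cJun differed by -7.51 points (-13.9 to -1.05), with 48.6% of 245 clustered and 56.1% of 3406 isolated hotspots, and JunB by -4.62 (-11.3 to 1.31). The values of FOSL2, ATF7 and VDR lay between -0.909 and 3.07 points under both definitions, and their intervals included 0. At equal numbers of the other factors, KLF4 stayed higher by 8.56 points in the first definition and by 8.23 in the second. ATF2 was higher by 2.27 and 6.02, and cJun was lower, at -3.52 and -8.37.

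**Figure D3:**
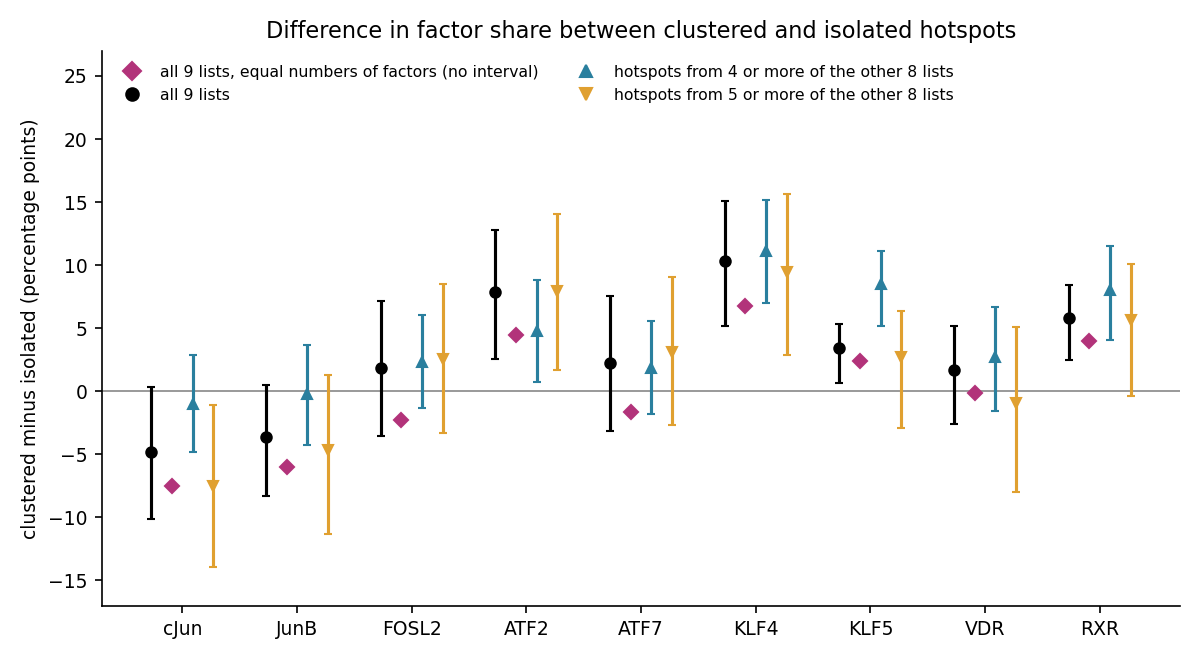
Difference in the share of listed hotspots, clustered minus isolated, in percentage points, for each factor. Points show all 9 lists (circles), all 9 lists at equal numbers of factors (diamonds), and hotspots from 4 or more (upward triangles) or 5 or more (downward triangles) of the other 8 lists; bars are 95% Newcombe intervals (none for the diamonds), and KLF4 lies between 6.78 and 11.1 in all 4.

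The most frequent exact set of factors was the same in both kinds of hotspot. cJun, JunB, KLF4, KLF5, VDR and RXR, without FOSL2 and the ATF factors, made up 45 clustered hotspots, or 12.5%, and 12.3% of isolated ones. All 9 factors came next, with 39. The same set of 6 without KLF4 accounted for 4.72% of clustered hotspots (2.77 to 7.45) and 7.81% of isolated ones (6.995 to 8.68). ATF2 and ATF7 with both KLF factors and both receptors, without any AP-1 subunit, accounted for 2.78% (1.34 to 5.05) and 1.17% (0.863 to 1.56). Both of these sets are examples that no rule chose, and other sets differed more. FOSL2, ATF2, ATF7, KLF4, KLF5 and RXR, for instance, made up 1.39% (0.452 to 3.21) and 0.150% (0.0549 to 0.325). In all, 84 different sets occurred at the 360 clustered hotspots, 41 of them once, and 191 at the 4009 isolated hotspots. bZIP, KLF and receptor proteins were all present at 93.9% of clustered and 88.3% of isolated hotspots.

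Seen as whole clusters, the order of the factors followed that of their shares at single clustered hotspots. KLF5 was listed at every hotspot of 96 of the 109 clusters, RXR of 85, VDR of 67 and JunB of 54. KLF4 was at every hotspot of 41, ATF2 of 35, cJun of 32, FOSL2 of 17 and ATF7 of 12. KLF5 and RXR together were at every hotspot of 80 clusters, or 73.4%, and KLF5, VDR and RXR of 54, or 49.5%. Over all hotspots outside the blocks, KLF5 was listed at 93.4%, RXR at 87.6% and VDR at 83.5%, so high counts would be found for any groups of hotspots. cJun and JunB, an AP-1 pair, were at every hotspot of 22 clusters, and ATF2 and ATF7 of 10. Over all single hotspots outside the blocks, these pairs were listed at 59.2% and 39.3%. KLF5, RXR and VDR have the longest lists, and KLF4 the shortest.

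**Figure D4:**
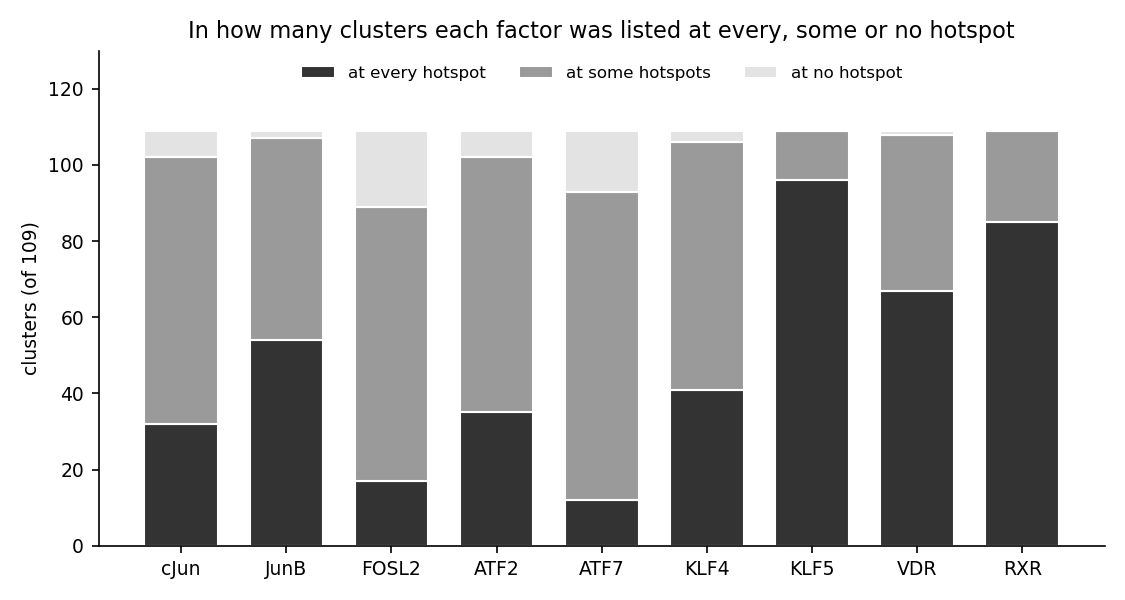
Number of clusters, of 109, in which each factor was listed at every hotspot (dark), at some hotspots (grey) or at no hotspot (light). KLF5 was at every hotspot of 96 clusters and ATF7 of 12.

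How often a factor was absent from a whole cluster differed by factor. All 9 factors occurred somewhere in 73 of the 109 clusters, 8 in 23, 7 in 6 and 6 in 7. These counts have no comparison with groups of isolated hotspots. KLF5 and RXR were absent from no cluster, VDR from 1, JunB from 2, KLF4 from 3, and ATF2 and cJun from 7 each. ATF7 was absent from 16 and FOSL2 from 20. Among clusters of 3 and groups of 3 consecutive isolated hotspots, the shares with a factor at none were close for ATF7 (18.1% and 18.2%), cJun (6.02% and 6.47%) and VDR (1.20% and 1.13%). For FOSL2 they were 24.1% and 15.9%. FOSL2, ATF2 and ATF7 were missing together from 6 clusters, all of them clusters of 3, and these were 6 of the 7 clusters with 6 factors in all. They made up 7.23% of clusters of 3 (2.70 to 15.1). Among them was the only cluster with 1 set throughout, on chromosome 8 from 55040216 to 55053554, where all 3 hotspots had cJun, JunB, KLF4, KLF5, VDR and RXR. In 90 clusters every hotspot had a different set. Identical sets were rare between consecutive isolated hotspots too, at 4.29% of pairs.

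The 83 clusters of 3 were set beside isolated hotspots taken 3 at a time in order of position (1329 groups of 3). KLF4 was listed at all 3 hotspots in 39.8% of clusters (29.2 to 51.1) and 21.9% of groups of isolated hotspots (19.7 to 24.2). ATF2 had 34.9% (24.8 to 46.2) and 21.8% (19.6 to 24.1). For all other factors the 2 intervals overlapped. KLF5 had 89.2% (80.4 to 94.9) and 78.7% (76.4 to 80.9), and RXR 77.1% (66.6 to 85.6) and 66.1% (63.5 to 68.7). cJun had 34.9% (24.8 to 46.2) and 27.7% (25.3 to 30.2). VDR had 63.9% and 58.2%, FOSL2 18.1% and 14.1%, JunB 51.8% and 55.8%, and ATF7 13.3% and 12.2%. The mean number of factors common to all 3 was 4.23 ± 1.21 (SD, 83 clusters) against 3.57 ± 1.36 (1329 groups), and 4 or more were common in 73.5% and 50.5%. FOSL2, ATF2 and ATF7 were missing together from 3.31% (2.42 to 4.42) of the groups of isolated hotspots.

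Neighbouring hotspots of a cluster shared more of their factors on average than consecutive isolated hotspots. The Jaccard index, the number of shared factors over the number listed at either hotspot, was 0.656 ± 0.169 (SD, 251 pairs) within clusters and 0.599 ± 0.186 (3989 pairs) between isolated neighbours. The difference was 0.0573 (95% normal interval 0.0356 to 0.0790, pairs taken as independent), and 0.0320 without the ATF2 list, with 5 of the other 8 required. It was 0.658 for the 56 pairs under 1000 bp apart, 0.673 for 1000 to 5000 bp and 0.634 beyond, so no steady fall with distance was seen inside clusters. The 559 pairs that stood alone had 0.645. Identical sets were found in 15 of the 251 pairs, or 5.98% (3.38 to 9.67), and in 4.29% (3.68 to 4.96) of isolated pairs. Without the 7 overlapping pairs the index was 0.656.

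How far the listing of 1 hotspot went with that of its neighbour differed by factor. The gaps given here are not parts of the Jaccard index, which depends on how often a factor is at both hotspots. cJun was at both in 37.8% of cluster pairs and 42.8% of isolated pairs, and JunB in 62.2% and 67.7%. KLF4 was at both in 53.0% and 36.7%. ATF2 was listed at 73.9% of neighbours of hotspots with ATF2 and at 50.0% of neighbours of hotspots without it, a gap of 23.9 points, against 6.996 points between isolated neighbours. FOSL2 had a gap of 21.1 points against 6.36, cJun 12.7 against 5.53, RXR 10.98 against 4.36 and KLF4 10.4 against 3.51. KLF5 had 25.5 against 1.048, but this rests on 15 pairs with KLF5 at 1 hotspot and 3 with KLF5 at neither. VDR had 6.43 against 3.58, ATF7 4.69 against 5.69 and JunB 5.08 against 0.260. Cluster pairs with the factor at neither hotspot were also few for RXR (4), VDR (8) and JunB (14). The gaps carry no intervals, and pairs of 1 cluster can share a hotspot. Whether ATF2 and ATF7 differed in this respect was not tested.

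**Figure D5:**
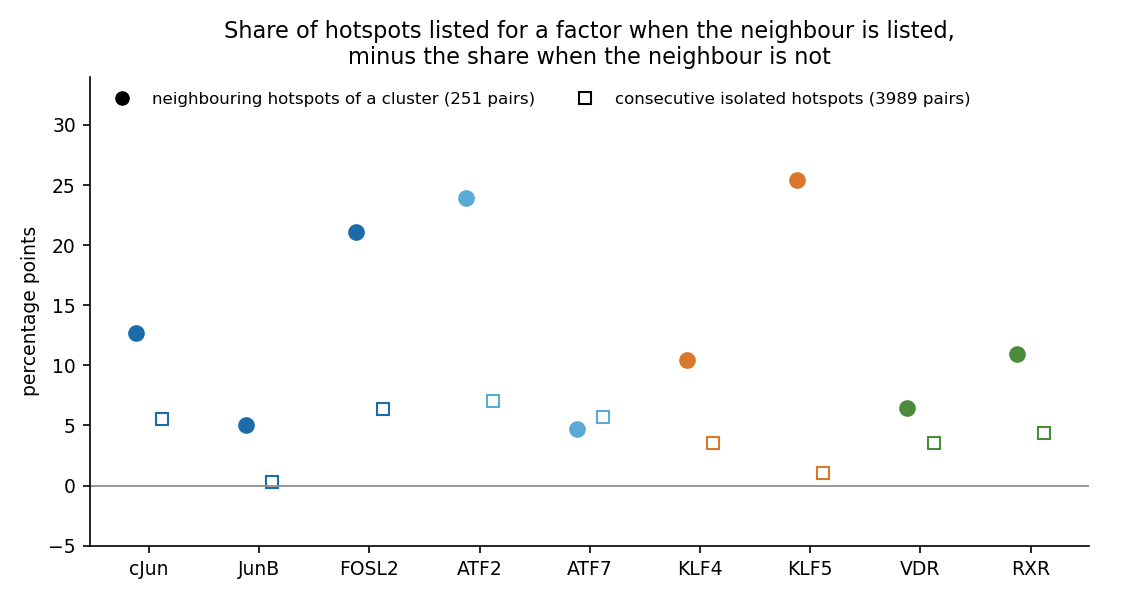
For each factor, the share of hotspots listed for it when the neighbouring hotspot is listed, minus the share when the neighbour is not, in percentage points. Filled circles are 251 neighbouring pairs within clusters and open squares 3989 pairs of consecutive isolated hotspots; ATF2 has 23.9 and 6.996.

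Sites with 1 to 4 factors took no part in the joining, and they too were denser near clustered hotspots. Within 10000 bp of a clustered hotspot lay 1.97 ± 1.61 such sites (SD, 360 hotspots), against 1.39 ± 1.41 for hotspots in pairs and 0.961 ± 1.11 for isolated ones. At least 1 was present near 83.6% of clustered hotspots (79.4 to 87.3) and 56.6% of isolated ones (55.0 to 58.1). Hotspots of 1 cluster can count the same site, and the clustered hotspots had 274 different such sites near them. Between the ends of the clusters lay 112, in 64 clusters, and 45 clusters held none.

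KLF4 and KLF5 also had higher shares at these lesser sites beside clustered hotspots. KLF4 was listed at 42 of the 274 sites near clustered hotspots, or 15.3% (11.3 to 20.1), at 9.66% (8.74 to 10.7) of 3767 near isolated hotspots and at 7.74% (7.40 to 8.09) of those over 10000 bp from any hotspot. KLF5 was listed at 57.3% (51.2 to 63.2), 50.4% (48.8 to 52.0) and 39.6% (39.0 to 40.3). FOSL2 was listed at 13.1% (9.37 to 17.7), 9.42% (8.51 to 10.4) and 11.5% (11.1 to 12.0). RXR had 33.9% and 31.1% near the 2 kinds of hotspot, VDR 27.4% and 26.4%, JunB 16.8% and 17.7%, and cJun 8.03% and 8.999%. The intervals of these 4 differences included 0. ATF2, higher at clustered hotspots, was not higher at the sites beside them, with 23.7% (18.8 to 29.2) and 25.9% (24.5 to 27.3). At equal numbers of factors KLF5 was higher near clustered hotspots by 4.18 points, KLF4 by 3.86 and FOSL2 by 2.69. The other differences were then below 0: -0.263 points for ATF7, -0.389 for RXR, -1.71 for VDR, -2.32 for cJun, -2.96 for JunB and -3.08 for ATF2. At equal numbers, higher shares of some factors force lower shares of others here too.

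The limits of the rule fell among close neighbours. The widest joined gap in a cluster was 9919 bp on chromosome 18, between hotspots of 5 and 6 factors, and the next was 9822 bp on chromosome 17, between hotspots of 6 and 7. The narrowest gap not joined was 10004 bp on chromosome 15, between hotspots of 9 and 5 factors, which would have made another cluster of 3 or more. Exactly 5 factors, the minimum, were listed at 105 of the 360 clustered hotspots. Sites with exactly 4 factors lay between the ends of 18 clusters, and 97 of the 559 pairs would have become clusters of 3 or more had 4 factors sufficed.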

How the data were processed

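The authors deposited 1 interval list per factor for 9 of 30 labelled samples; the other 21 were not analysed here. Each list has 3 columns, chromosome, start and end, in mm9. FastQC, Bowtie and HOMER were used, per the submitters' processing notes; their versions, their roles and any threshold are not given in the labels. Every interval was 400 bp long, and shared intervals had identical coordinates in every list. The 2 intervals on chromosome Y were left out.

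Positions are 1-based. Shares carry exact Clopper-Pearson 95% intervals and differences of shares carry Newcombe 95% intervals; differences of means carry normal 95% intervals from the 2 groups' variances. No test was made, because there is 1 library per factor. The members and the comparisons were chosen with earlier results of these data known. Clusters described singly were the 8 with the most hotspots, the 3 with the highest and lowest mean number of factors and the 3 shortest; the cluster on chromosome 8 with 1 set throughout was singled out after its values were seen. The counting was run on simulated lists with planted clusters of 3 that stood far apart, and all were found in 20 of 20 draws. This checks the code only, since no gap near the joining limit was simulated. Alternatives changed the joining distance, the number of lists, the lists used and the groups compared. No mm9 genome or annotation was used, so no gene, motif or sequence is given. Python 3.11.15, numpy 2.4.6, scipy 1.17.1 and matplotlib 3.10.9 were used.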

Additional observations from a re-analysis of the deposited data

How the results depend on the processing

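The 109 clusters became 52 when joined within 5000 bp, 227 within 20000 bp, 246 with hotspots of 4 or more lists and 40 with hotspots of 6 or more. The 360 clustered hotspots became 170, 805, 852 and 129 in the same order. Leaving out 1 list at a time, with hotspots of 4 or 5 of the other 8, gave 47 to 218 clusters and 154 to 753 clustered hotspots. The difference in factor number, 0.247, was 0.0978 with 6 or more lists, 0.394 with the chromosome 10 blocks kept, and 0.0699 (without KLF5) to 0.302 with 1 list left out. Of 9 factors 7 had higher shares in clusters, against 4 at equal numbers of factors and 4 to 6 of 8 with 1 list left out. At equal numbers, higher shares of some factors force lower shares of others. The Jaccard difference, 0.0573, was 0.0320 (without ATF2) to 0.0709. The difference in sites of 1 to 4 factors, 1.01, was 0.673 with 4 or more lists, 1.29 with 6 or more, 1.50 with blocks kept, 1.44 for clusters of 4 or more, 0.427 for pairs, 0.448 within 5000 bp, 1.86 within 25000 bp and 0.613 to 1.16 with 1 list left out. Over 32 alternatives the differences of KLF4, KLF5, ATF2 and RXR stayed above 0 and those of cJun and JunB below 0. The values nearest 0 were 0.798 for KLF5, -0.192 for JunB and -0.981 for cJun. These alternatives re-use the same lists and many of the same hotspots, so a constant sign is not separate support. The single factor numbers at which directions did not hold are not among them. FOSL2 fell below 0 in 10, VDR in 6 and ATF7 in 4. Leaving out clusters with overlapping intervals, leaving out chromosome 6, and taking isolated hotspots 3 at a time were chosen after seeing the data. The causes of these shifts were not tested. The planned reading of sequence content was not run, since no mm9 sequence was used. No paired analysis was possible because each factor has 1 list.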

Other observations

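The lists are not sorted by position, and the order of shared intervals was the same in 36 of 36 pairs of lists. No label says what this order stands for. Clustered hotspots stood earlier in it than isolated hotspots in all 9 lists, and both stood earlier than intervals with fewer than 5 factors. The lists share this order and many of the same hotspots, so they do not count as 9 separate observations. In the KLF4 list the median clustered hotspot came after 33.7% of the entries, the median isolated hotspot after 37.6% and the median interval with fewer factors after 73.8%. In the KLF5 list the values were 22.3%, 25.8% and 63.1%, in the ATF2 list 22.1%, 26.8% and 62.7%, and in the cJun list 28.7%, 32.8% and 76.3%.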
